A study of Mus musculus with 5 samples.

Results

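The serpins are a family of protease inhibitors and of relatives that have lost the inhibitory role. An inhibitory serpin offers an exposed loop as bait. A protease that cuts the loop is dragged across the molecule and locked in a dead complex, which receptors of the liver then clear. Hepatocytes make most serpins of blood plasma, among them α1-antitrypsin, antithrombin and C1 inhibitor, whereas the ovalbumin-like serpins of clade b stay mostly inside cells. Members were the probe sets of a mouse gene array that carry a single gene symbol starting with Serpin, with the highest-mean probe set kept for a gene. This gave 48 genes out of 19938 tested, each with 1 such probe set. There were 15 genes in clade a, 24 in clade b and 9 in clades c to i. Serpine2, Serpina3k and other family genes without such a probe set are not analysed here.

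Expression was measured on 5 Affymetrix arrays with liver RNA of male mice, all aged about 10 months. The 2 controls were normal livers of genotype Hdac3FL/+ with AlbCre+, and the 3 other samples were liver tumours of genotype Hdac3FL/- with AlbCre+. AlbCre, a recombinase under the albumin promoter, acts in hepatocytes of both groups and leaves those of the controls with the wild-type allele alone. Every tumour was Hdac3-null and every control was normal tissue, so genotype and tumour cannot be told apart, and in bulk tissue fewer cells of a type and less RNA per cell cannot be told apart either. Within a group the arrays are biological replicates, per the labels.

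Values are log2 expression per probe set. Array medians lay between 5.66 and 5.77. Hdac3 stood at 8.21 and 8.37 in controls 1 and 2 and at 6.78, 6.57 and 6.65 in tumours 1, 2 and 3. The place of its probes relative to the deleted part is not analysed here. Albumin (Alb), which defines hepatocytes, stood at 12.65 and 12.85 in the controls and at 12.77, 12.75 and 12.36 in the tumours. The lower quartile of all values averaged 4.34 over the control arrays and 4.31 over the tumour arrays, and a group mean below it was not shown to be above background. In 24 of the 48 members this held for both groups, and 18 of these were clade b genes.

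The promoters of the α1-antitrypsin genes are shown first, and those of other members that changed are shown beside them. Only promoter sequences were compared. Transcripts and probes were not, so the identity given here does not show what a probe takes up. Sequences are from RefSeq (GRCm38.p6), 5′ to 3′ on the gene's own strand, and each window lies upstream of the annotated start. Capitals mark GTTAAT, a core of sites bound by the hepatocyte factor HNF1. The 5 Serpina1 windows, of 60 bases each, share a run of 54 identical bases and differ at 5 positions. Over the promoters as tabulated, the 10 pairs of these genes were 91.4% to 97.6% identical in local alignments of 234 to 300 columns.
Serpina1a, chr12:103863626-103863685, minus strand: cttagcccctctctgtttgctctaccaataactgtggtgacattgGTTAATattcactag
Serpina1b, chr12:103738201-103738260, minus strand: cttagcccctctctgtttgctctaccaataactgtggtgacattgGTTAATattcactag
Serpina1c, chr12:103904963-103905022, minus strand: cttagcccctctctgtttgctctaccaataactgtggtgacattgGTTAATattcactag
Serpina1d, chr12:103773635-103773694, minus strand: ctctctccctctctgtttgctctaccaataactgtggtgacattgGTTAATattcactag
Serpina1e, chr12:103956961-103957020, minus strand: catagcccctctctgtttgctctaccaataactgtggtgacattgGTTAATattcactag
Serpina7, chrX:139085279-139085338, minus strand: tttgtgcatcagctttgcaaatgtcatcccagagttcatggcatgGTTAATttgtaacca

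Of the 8 members that passed the test below, 5 had a promoter in the RefSeq table. Serpina7, which rose, and Serpina1c, which fell, both held GTTAAT, with its first base at −57 and −27 from the start. It stood on either strand within 250 bases upstream in 6.43% of 32851 promoters and in 6 of 41 members with a promoter. Serpina11, which fell, held TGACCT, the complement of the nuclear receptor half-site AGGTCA, and Serpinb6a, which rose, held a match to the STAT motif TTCNNNGAA. These matches are in capitals below. Serpina11 held such a match too, just before its capitals. AGGTCA or its complement was found in 4607 of all 32851 promoters and in 14 of 41 members, and TTCNNNGAA in 7.02% and in 5 of 41. The AP-1 motif TGANTCA was found in 6.75% of all promoters and in 9 of 41 members, Serpina1c among them. None of these 4 motifs contains another, and both strands were searched for each. All promoters were counted singly (32851 for 27025 genes), whereas a member counted once if any of its promoters matched. The member counts and the shares of all promoters are thus not like for like. The Serpinb6b promoter held none of the 4 in this window. A match is a description of letters and does not show a bound site.
Serpina11, chr12:103989984-103990043, minus strand: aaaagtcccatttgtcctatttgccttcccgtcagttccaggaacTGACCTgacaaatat
Serpinb6a, chr13:34002854-34002916, minus strand: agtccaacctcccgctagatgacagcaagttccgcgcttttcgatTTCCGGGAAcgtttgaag

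Across the family, 4 members rose and 4 fell in the tumours, and 40 did not pass. The rises were the thyroxine carrier Serpina7, the factor X and XI inhibitor Serpina10, and the intracellular inhibitors Serpinb6a and Serpinb6b. The falls were the pseudogene Serpina4-ps1, Serpina11, the α1-antitrypsin gene Serpina1c and the elastase inhibitor Serpinb1a. The test was limma's moderated test of tumours against controls, adjusted over all 19938 genes by Benjamini-Hochberg at 0.05 (n = 2 and 3). Of all genes, 5.6% rose and 4.96% fell, against 8.33% of the family in each direction. The family's median log2 change was −0.03, beside −0.02 for all genes. Tumour and control values did not overlap in 24 of the 48 members. All tumours were above both controls in 9 members and below them in 15, against 21.1% and 23.1% of all genes, or 44.2% together. With 2 arrays against 3, exact permutation reaches no p under 0.1 (two-sided), so single calls rest on the spread shared across genes. Without control 1 the calls left were 2 of the 8 (Serpina4-ps1 and Serpinb1a), and without control 2 they were 3 (these and Serpina11). Over all genes 129 and 108 calls were made there, against 2106 with all arrays. Most calls of any gene are thus lost without a control, here and in the lists below.

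**Figure D1:**
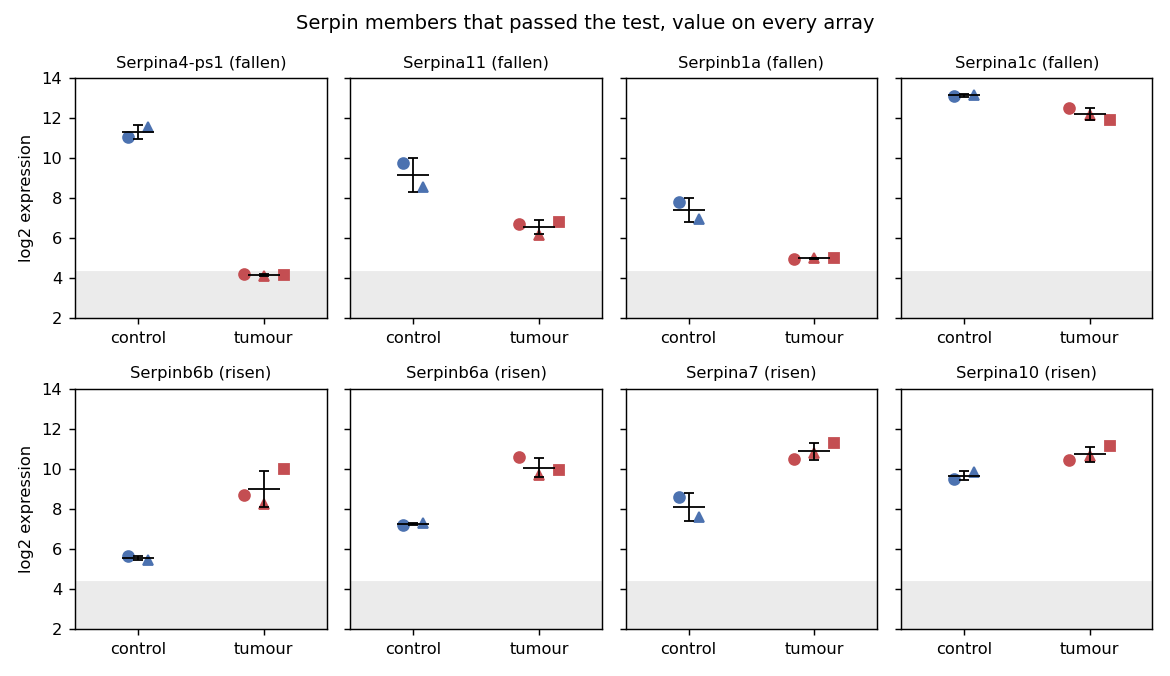
Log2 expression of the 8 Serpin members that passed the test, 1 panel per gene, in 2 control livers (blue) and 3 Hdac3-null tumours (red); circle, triangle and square are replicates 1, 2 and 3, bars are the mean and SD, and the grey band lies under the mean lower quartile of the arrays. In every panel the tumours lie beyond both controls, and the tumours of Serpina4-ps1 lie inside the band at 4.10 to 4.22.

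**Figure D2:**
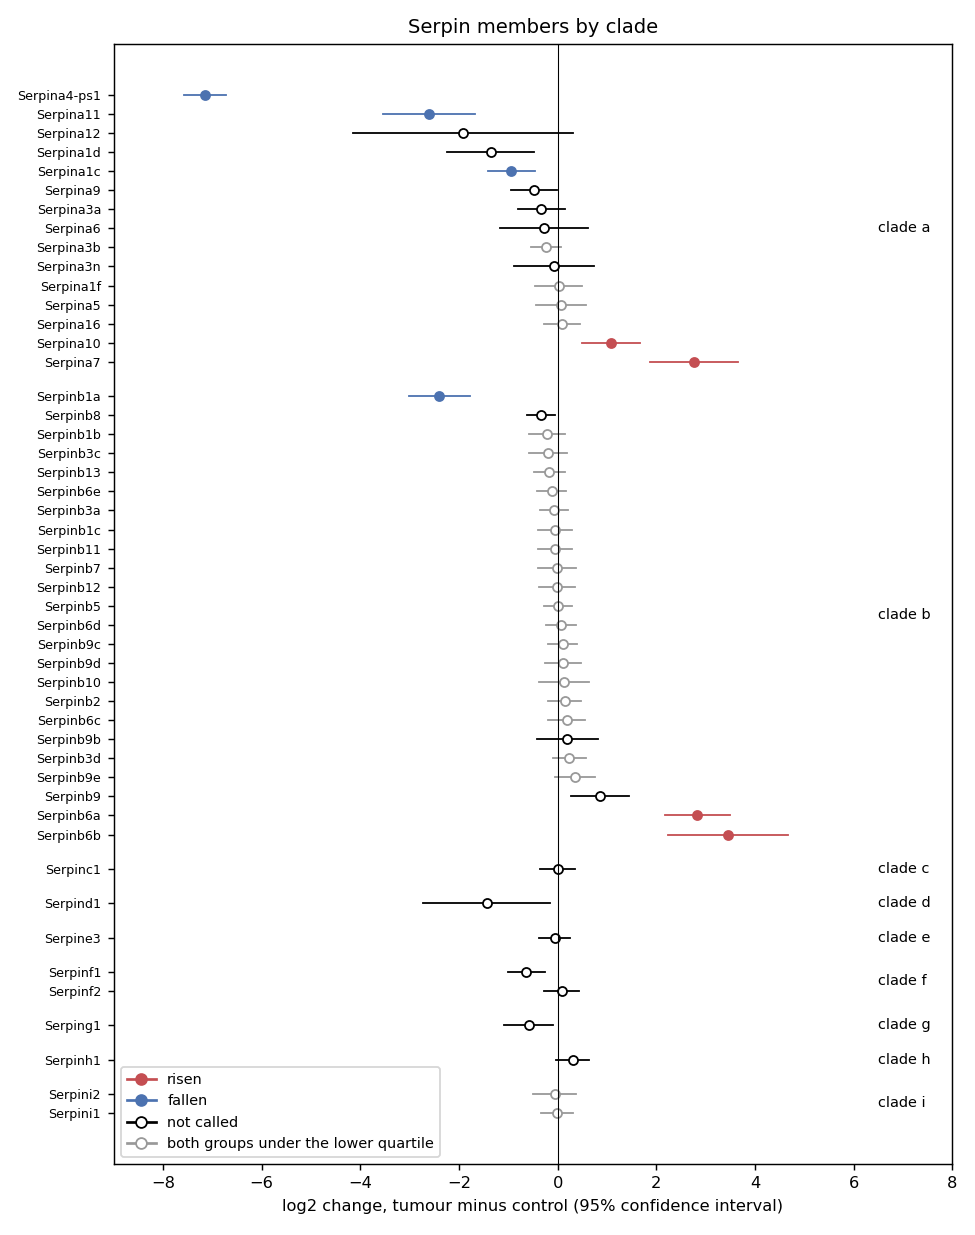
Log2 change (tumour minus control) of all 48 members with its 95% confidence interval, grouped by clade; filled points passed the test (red risen, blue fallen), open points did not, and grey marks members with both groups under the lower quartile. Clade a spans −7.14 to 2.77, clade b −2.40 to 3.45, and no member of clades c to i is filled.

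Clade a holds many of the secreted serpins of plasma. Of its 15 members, 2 rose (13.3%, against 5.6% of all genes) and 3 fell (20%, against 4.96%), with a median log2 change of −0.27. Its α1-antitrypsins, which protect tissue from neutrophil elastase, are encoded in the mouse by several near-identical genes. Serpina1c stood at 13.10 and 13.19 in the controls and at 12.52, 12.19 and 11.92 in tumours 1, 2 and 3. All tumours lay below both controls, a fall of 0.94 on the log2 scale (95% confidence interval −1.42 to −0.45; limma adjusted p = 0.0382). Serpina1d stood at 9.60 and 10.10 in the controls and at 8.78, 8.89 and 7.81 in the tumours. Its groups did not overlap either, but the change of −1.36 (−2.24 to −0.48) did not pass (limma adjusted p = 0.0686). Without tumour 3, the lowest, Serpina1d passed (adjusted p = 0.0255), as it did with array weights (0.0333), and Serpina1c lost its call without tumour 2 (0.0972) or either control (0.215 and 0.259). Serpina1f, a distant relative in the same cluster, was under the lower quartile in both groups.

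Cross-hybridisation may touch these values, which was not tested. Serpina1a, Serpina1b and Serpina1e have no probe set of their own here, and 2 further probe sets are annotated with all 5 of Serpina1a to Serpina1e, so they name no gene. Their changes were −0.53 (−0.98 to −0.08) and −0.63 (−0.99 to −0.26), below both controls in all 3 tumours in each case. Neither passed when all 28853 probe sets were tested (limma adjusted p = 0.152 and 0.0588), where 3.97% fell. The single-symbol probe sets of Serpina1c and Serpina1d may also take up transcript of the other paralogues, so which paralogue fell cannot be told from these data. In clade b, 3 probe sets are shared by Serpinb9d, Serpinb9e, Serpinb9f and Serpinb9g. They stood 0.43 to 0.49 higher in the tumours without passing (adjusted p between 0.0651 and 0.0809), with control means of 3.30 to 4.02, under the lower quartile.

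**Figure D3:**
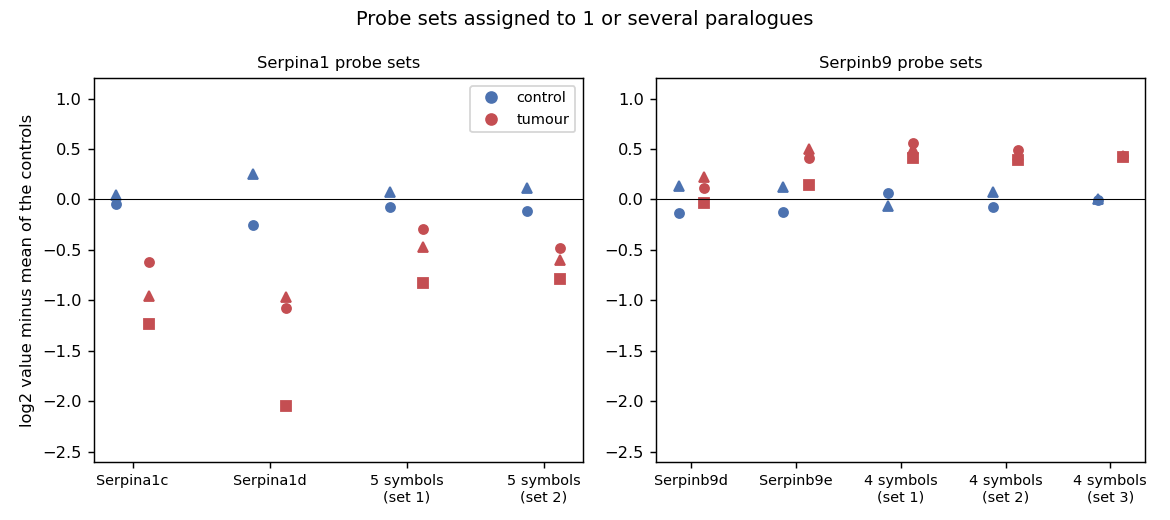
Log2 value minus the mean of the controls for Serpina1 (left) and Serpinb9 (right) probe sets, with 1 gene symbol or with several; blue points are the 2 controls, red points the 3 tumours, and circle, triangle and square are replicates 1, 2 and 3. The Serpina1 probe sets lie below the controls in all tumours, at means from −1.36 to −0.53, and tumour 3 is the lowest in each.

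Serpina4-ps1, a transcribed pseudogene related to the human tissue kallikrein inhibitor SERPINA4, changed more than any other family member. It stood at 11.06 and 11.55 in the controls, against 4.22, 4.10 and 4.18 in the tumours. The tumour mean lay under the lower quartile, so the measured change of −7.14 (−7.57 to −6.72; limma adjusted p = 9.74e-05) is uncertain in size. With the tumours set to that quartile the difference was 6.995 log2 units. Serpina11, a secreted relative, stood at 9.77 and 8.58 in the controls and at 6.71, 6.17 and 6.84 in the tumours. The controls differed by 1.196 from each other, and all tumours lay below both. Serpina11 fell by 2.61 (−3.55 to −1.67; limma adjusted p = 0.0141), a call lost without control 1 (0.0896). Serpina12 (vaspin), an insulin-sensitising adipokine also made in liver, varied most between tumours. It stood at 8.19 and 7.45 in the controls and at 7.20, 6.48 and 4.02 in the tumours, a range of 3.18 among tumours, and its change of −1.92 (−4.15 to 0.31) did not pass (adjusted p = 0.265).

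The hormone carriers of clade a bind their hormone without inhibiting a protease. Serpina7, the thyroxine-binding globulin, stood at 8.62 and 7.61 in the controls and at 10.50, 10.82 and 11.32 in the tumours. It rose 6.81-fold (log2 change 2.77, 1.88 to 3.65; limma adjusted p = 0.0102), and every tumour lay above both controls. Serpina6, the corticosteroid-binding globulin, stood at 11.60 and 11.78 in the controls and at 10.92, 11.17 and 12.16 in the tumours. Tumour 3 was above the controls and the other two below, a change of −0.27 (−1.17 to 0.62; adjusted p = 0.724). Without tumour 3 Serpina6 passed as fallen (0.0467), so its call turns on that array. Of 7 genes of glucocorticoid and thyroid hormone transport and handling, 4 fell and 0 rose, against 4.96% and 5.6% of all genes. The median of the 7 was −0.72. Dio1, the deiodinase that activates thyroxine, fell by 3.08, the thyroid hormone receptor Thrb by 1.34, the glucocorticoid receptor Nr3c1 by 0.72 and Ttr, another thyroxine carrier, by 0.71. Serpina7 lost its call without either control (0.0521 and 0.0915), and Thrb, Nr3c1 and Ttr lost theirs without either control or tumour 2, and Ttr also without tumour 1. Ttr was further lost with quantile normalisation repeated (0.0581).

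Among the antichymotrypsins, Serpina3n, an acute-phase inhibitor, stood at 10.98 and 10.75 in the controls and at 11.17, 11.08 and 10.12 in the tumours. Its groups overlapped, and the change of −0.08 had an interval of −0.89 to 0.74 (adjusted p = 0.928). Serpina3a (4.95 and 4.37 in the controls; 4.42, 4.25 and 4.31 in the tumours) overlapped as well, and Serpina3b was under the lower quartile in both groups. Serpina9, known in humans from germinal centre B cells, changed by −0.48 without passing (adjusted p = 0.181). Its tumour mean lay under the lower quartile. Serpina5, the protein C inhibitor, and Serpina16 were under the quartile in both groups.

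The clotting and fibrinolysis inhibitors come from several clades. Of 6 measured, 1 rose and 0 fell (16.7% and 0%, against 5.6% and 4.96% of all genes). In 2 of the 6 both groups were under the lower quartile. Serpina10, which inhibits activated factors X and XI, stood at 9.51 and 9.83 in the controls and at 10.43, 10.66 and 11.16 in the tumours. It rose 2.12-fold (log2 change 1.08, 0.49 to 1.67; limma adjusted p = 0.0446), and all tumours lay above both controls. Its cofactor Proz, protein Z, stood at 10.45 and 10.59 in the controls and at 9.84, 9.67 and 9.29 in the tumours, and fell by 0.92 (−1.39 to −0.46; adjusted p = 0.0361). Both calls were lost without either control and without tumour 2 (Serpina10 0.288, 0.204 and 0.0959; Proz 0.197, 0.258 and 0.0829), and that of Proz with quantile normalisation repeated (0.0599).

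Serpinc1, antithrombin, the main brake on thrombin, stood at 11.54 and 11.46 in the controls, against 11.59, 11.60 and 11.30 in the tumours, a change of −0.00 (−0.36 to 0.35; adjusted p = 0.997). Tumours 1 and 2 lay just above the controls and tumour 3 below them. Serpind1, heparin cofactor II, stood at 12.48 and 12.55 in the controls and at 11.91, 11.30 and 10.00 in the tumours. All tumours were lower, but they ranged over 1.91, and the change of −1.44 (−2.73 to −0.15) did not pass (adjusted p = 0.157). Without tumour 3 it passed (0.0489). Serpinf2, the plasmin inhibitor α2-antiplasmin, stood at 11.21 and 11.14 in the controls and at 11.38, 11.07 and 11.30 in the tumours, which overlapped (0.08, −0.27 to 0.43). Serpinb2, an inhibitor of plasminogen activators, was under the lower quartile in both groups.

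Clade b serpins guard the cytosol against leaked granule or lysosomal proteases. Of 24 members, 2 rose (8.33%, against 5.6% of all genes) and 1 fell (4.17%, against 4.96%). The median log2 change was 0.03, and 18 members were under the lower quartile in both groups. Serpinb6a, whose human counterpart inhibits cathepsin G, stood at 7.20 and 7.29 in the controls and at 10.59, 9.69 and 9.95 in the tumours. It rose 7.11-fold (log2 change 2.83, 2.17 to 3.49; limma adjusted p = 0.00423). Serpinb6b, which inhibits granzyme A, stood at 5.63 and 5.47 in the controls and at 8.71, 8.27 and 10.02 in the tumours. It rose 10.9-fold (log2 change 3.45, 2.24 to 4.66; adjusted p = 0.0128), highest in tumour 3. Tumours and controls were far apart in both genes, while the calls were lost without either control (0.0731 and 0.0794 for Serpinb6a, 0.13 and 0.149 for Serpinb6b). The other members of that subfamily, Serpinb6c, Serpinb6d and Serpinb6e, were under the lower quartile in both groups.

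Serpinb1a, which inhibits neutrophil elastase, cathepsin G and proteinase 3, went the other way. It stood at 7.84 and 6.98 in the controls, against 4.99, 5.00 and 5.03 in the tumours, where they lay within 0.04 of each other. It fell by 2.40 (−3.02 to −1.78; limma adjusted p = 0.00534), and the call held with any of the 5 arrays left out. Its relatives Serpinb1b and Serpinb1c were under the quartile in both groups. Serpinb9, which inhibits granzyme B, stood at 6.28 and 5.69 in the controls and at 6.84, 6.58 and 7.13 in the tumours. All tumours were above both controls, but the change of 0.87 (0.28 to 1.45) did not pass (adjusted p = 0.0801). Serpinb8 (5.74 and 5.76 in the controls; 5.42, 5.45 and 5.37 in the tumours) was lower in every tumour by a small step of −0.34 that did not pass (0.131), and Serpinb9b overlapped. The 7 members known from squamous and breast epithelium, such as Serpinb3a and Serpinb5, were all under the quartile in both groups, with changes from −0.19 to 0.23.

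Markers of cell types were read beside these clade b results. Of 13 macrophage markers, 6 rose and 1 fell (46.2% and 7.69%, against 5.6% and 4.96% of all genes). Adgre1, Cd68, Csf1r, Cd14, Lyz2 and Gpnmb rose and Cd163 fell, while Clec4f, Marco, Vsig4, Cd5l, Timd4 and Trem2 did not pass. Vsig4 stood at 9.84, 7.34 and 4.55 in tumours 1, 2 and 3. The mean log2 level of the 13 was 6.27 and 6.67 in the controls and 8.25, 7.23 and 7.20 in the tumours. Of 10 T and NK cell markers none passed, with means of 4.71 and 4.69 in the controls and 5.02, 5.07 and 6.09 in the tumours, highest in tumour 3 as for Serpinb6b. Of 10 neutrophil markers none passed either (4.52 and 4.59; 4.98, 4.56 and 4.59). Of 9 hepatocyte markers 3 fell (33.3%, against 4.96% of all genes) and 0 rose. The mean of that list was 12.10 and 12.18 in the controls and 11.82, 11.62 and 11.44 in the tumours. The macrophage and hepatocyte calls were all lost without either control, and the hepatocyte calls also without tumour 2. Their part in the changes of Serpinb6a, Serpinb6b, Serpinb1a and the clade a genes was not tested.

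The remaining clades are small, and 0 of the 9 members of clades c to i passed limma's test, against 10.6% of all genes. At an unadjusted p under 0.05, 3 of them did (Serpinf1, Serping1 and Serpind1), beside 25.2% of all genes. Serpinf1, an inhibitor of vessel growth (PEDF), stood at 10.83 and 10.79 in the controls and at 10.07, 10.40 and 10.06 in the tumours. All tumours were below both controls by a mean of −0.63 (−1.01 to −0.26; adjusted p = 0.054). It passed without tumour 2 (0.0471), with dim genes left out (0.0483) and with array weights (0.0377). Serping1, the C1 inhibitor, which checks complement and the contact system, stood at 12.29 and 12.27 in the controls and at 11.64, 11.40 and 12.04 in the tumours. Its change of −0.59 (−1.09 to −0.09) did not pass (adjusted p = 0.138). It passed without tumour 3 (0.0233) and with array weights (0.0317). Serpinh1 (Hsp47), a collagen chaperone of the endoplasmic reticulum, stood at 5.55 and 5.73 in the controls and at 6.06, 5.95 and 5.83 in the tumours, a change of 0.30 (−0.03 to 0.64; adjusted p = 0.233). Serpine3 stood at 5.32 and 5.41 in the controls and at 5.39, 5.18 and 5.35 in the tumours, which overlapped. Serpini1 (neuroserpin; 4.10 and 4.01, then 4.10, 3.89 and 4.12) and Serpini2 (3.15 and 3.31, then 2.97, 3.09 and 3.45) lay under the lower quartile in both groups.

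Position in the genome gives another view. The 14 clade a members other than Serpina7 lie in 1 cluster on chromosome 12, and 13 clade b members lie in another on chromosome 13. On chromosome 12, 1 member rose (7.14%, against 5.6% of all genes) and 3 fell (21.4%, against 4.96%), with a median of −0.30. In gene order, the risen Serpina10 is at 1 end, followed by Serpina6, which did not pass. Serpina1d, Serpina1c, Serpina11, Serpina9, Serpina12 and Serpina4-ps1 follow after Serpina16 and Serpina1f, and each had all 3 tumours below both controls. The same order held in 23.1% of all genes. Serpina1d, Serpina9 and Serpina12 did not pass, and the tumour mean of Serpina9 lay under the lower quartile. The probe sets of Serpina1c and Serpina1d may take up transcript of the same paralogues. Beyond Serpina4-ps1 the groups of Serpina5, Serpina3a and Serpina3n overlapped, and Serpina3b was lower but under the lower quartile. On chromosome 13, Serpinb1a (fallen) and Serpinb6a (risen) stand at the ends, and Serpinb6b and Serpinb9 are neighbours among the members. None of the 11 clade b members on chromosome 1 passed, and 10 of them were under the lower quartile in both groups.

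**Figure D4:**
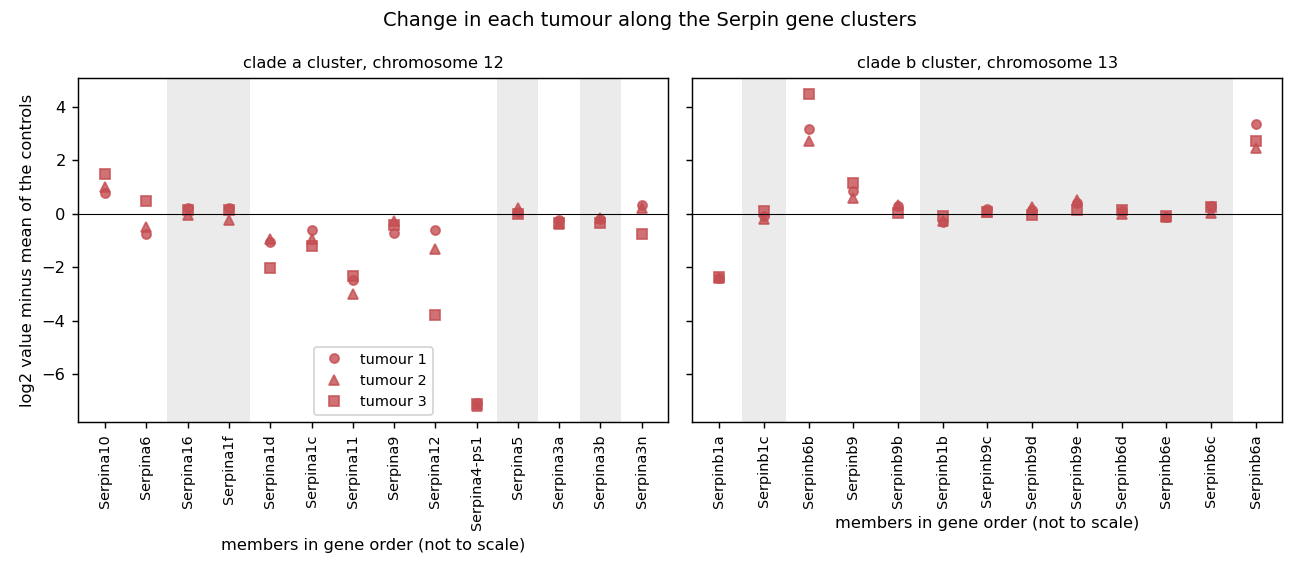
Log2 value of each tumour minus the mean of the controls, for members in gene order on chromosomes 12 (left) and 13 (right); circle, triangle and square are tumours 1, 2 and 3, and grey columns mark members with both groups under the lower quartile. The neighbours from Serpina1d to Serpina4-ps1 lie below 0 in every tumour, and Serpinb6b and Serpinb6a stand at 2.44 or more above the controls.

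The proteases that serpins inhibit moved in both directions, 5 risen and 7 fallen among 36 measured, with a median of −0.10. These were 13.9% and 19.4% of the list, against 5.6% risen and 4.96% fallen over all genes. Only 4 of the 36 were under the lower quartile in both groups, whereas the shares over all genes include many dim genes. With the dimmest 40% of genes left out, 17.9% of genes were called in either direction, against 10.6% with them. The same limit holds for the other lists. Among the clotting and fibrinolysis proteases 3 of 10 fell and 0 rose. F11 (factor XI, a target of Serpina10) fell by 2.03, Proc (protein C) by 1.25 and F9 by 1.30, while F2, prothrombin, the main target of antithrombin, stood at −0.37 (−0.65 to −0.08) without passing. Both plasminogen activators were above the controls in every tumour without passing, Plat by 3.13 (adjusted p = 0.0759) and Plau by 1.58 (0.053). Of the 4 complement proteases that C1 inhibitor acts on, 3 fell: C1s1 fell by 2.45, Masp2 fell by 1.59 and Masp1 fell by 1.38. C1ra, at −1.36, did not pass (0.0514).

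Leukocyte granule proteases did not pass in any of 9 cases, against 10.6% of all genes called in either direction. In 4 of the 9 both groups were under the lower quartile. Gzma, the target of Serpinb6b, was under the lower quartile in both groups (3.87 and 3.83 in the controls; 3.83, 3.67 and 3.93 in the tumours). Ctsg (−0.17), Elane (0.06), Prtn3 (−0.05) and Gzmb (0.79, −0.19 to 1.76) did not pass either. Lysosomal cathepsins of the cysteine class, which some clade b serpins inhibit, had 2 of 6 risen and 0 fallen. These were 33.3% and 0%, against 5.6% and 4.96% of all genes. Ctss, which macrophages express, rose by 2.98 (controls 7.76 and 8.19; tumours 10.87, 10.53 and 11.46), and Ctsz rose by 1.25. Ctsl, at 0.89, did not pass (adjusted p = 0.075). Of 7 epithelial and hepatic serine proteases 3 rose and 1 fell (42.9% and 14.3%, against 5.6% and 4.96% of all genes). Tmprss2 rose by 2.25, St14 (matriptase) by 2.25 and Prss8 (prostasin) by 2.19, and Hgfac, which activates hepatocyte growth factor, fell by 0.92. Hpn (hepsin), at −0.57, did not pass. Without either control, all 12 of these protease calls were lost, and the call of Prss8 was also lost without tumour 1 or 2 and under 4 other settings, and those of F9 and Masp1 without tumour 2. Masp1 also lost its call with quantile normalisation repeated (0.0647).

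Partners of other kinds and inhibitors that are not serpins were read against the same shares of all genes. Of 9 receptors and cofactors Proz was the only one called (11.1% fallen, against 4.96% of all genes). The clearance receptor gene Lrp1 stood at −0.35 (−0.70 to 0.01) and the vitronectin gene Vtn at −0.59 (adjusted p = 0.058). Of 16 collagens and collagen-modifying enzymes, the clients and partners of Serpinh1, 2 rose (12.5%, against 5.6% of all genes). They were Col4a1, by 1.68, and Col4a2, by 1.59, the chains of basement membrane collagen. All tumours lay above both controls in 10 of the 16 and below them in 0, against 21.1% and 23.1% of all genes. P4hb stood at 0.38 without passing. Protease inhibitors that are not serpins had 4 risen and 4 fallen among 27, or 14.8% each, against 5.6% and 4.96% of all genes. Only 1 of the 27 was under the lower quartile in both groups, so the shares over all genes are not like for like. Mug2 fell by 2.65 and Mug1 by 1.98, both murinoglobulins of plasma, and Itih1 and Tfpi2 fell as well. Timp2, an inhibitor of matrix metalloproteinases, rose by 1.14, beside Timp1, Timp3 and the cathepsin inhibitor Cstb. Ahsg stood at 0.04 without passing. The calls of these collagens and inhibitors were lost without either control, those of Timp1 and Cstb also without tumour 2, and that of Timp1 also without tumour 1.

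**Figure D5:**
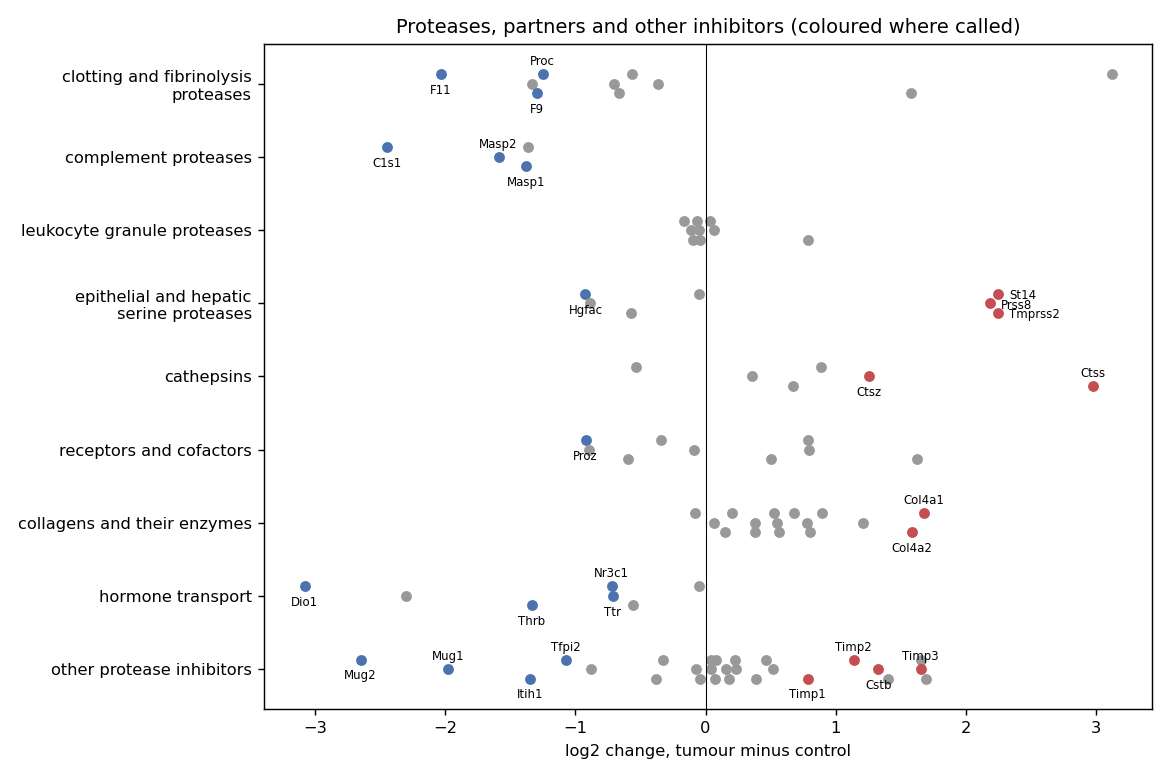
Log2 change (tumour minus control) of serpin targets, partners and other protease inhibitors, 1 point per gene and 1 line per list; red and blue points passed the test as risen and fallen and are named, and grey points did not pass. Complement proteases lie wholly left of 0, at −2.45 to −1.36, and leukocyte granule proteases lie between −0.17 and 0.79 with none coloured.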

How the data were processed

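Values were used on the log2 scale as the authors deposited them, 1 for each probe set on each array. The submitters' processing notes name GCOS and RMA, with neither version nor role. No source used here gives the genome build or annotation version. Of 28853 probe sets, 21789 had 1 gene symbol in the platform's probe table and 1621 had several. The highest-mean single-symbol probe set was kept for each of 19938 genes. All 48 Serpin genes matched a RefSeq table of assembly GRCm38.p6 by Entrez identifier, which gave chromosomes and gene order.

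Tumours (n = 3) and controls (n = 2) were compared in limma 3.58.1 (lmFit, then eBayes; R 4.3.3), without covariates, and tested on simulated data. Intervals are 95% confidence intervals of this fit, and p-values are two-sided. Precision is limited by the 5 arrays. RMA compresses low values. Python 3.11.15, pandas 2.3.3, Biopython 1.88 and matplotlib 3.10.9 were used.

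All Serpin genes could be named. Called members, clades c, d, g and h and the highest-mean members of the other clades are given with every value. From other lists the called genes with the smallest p and the highest-mean gene were named, and further genes after their values were seen. Members and lists were chosen with earlier results of these data known.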

Additional observations from a re-analysis of the deposited data

How the results depend on the processing

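The 4 risen and 4 fallen members kept direction and call with quantile normalisation repeated, arrays shifted to a common median, dim genes left out, probe sets averaged, all probe sets tested, a variance trend, array weights and a replicate block. Ttr and Timp1 lost their calls with the block, at adjusted p of 0.0622 and 0.0572. Serpina1c alone of the members missed a threshold of 2-fold. Counts that moved by over 1.5 times were as follows. Array weights gave 7 members fallen, 2 of them in clades c to i, with 9 target proteases risen and 11 fallen. An adjusted p under 0.1 gave 1 fallen in clades c to i and 9 and 12 target proteases, and leaving out the dimmest 40% of genes also gave 1 fallen in clades c to i. With the replicate block, 8 members fell, 6 of clade a and 1 of clades c to i, and 9 target proteases rose. Serpina12, Serpina1d, Serpina6, Serpinb9 and Serping1 were called there and not in the main comparison. The labels do not state that samples with the same replicate number are paired. Same-numbered deviations correlated at 0.00 and −0.01 across genes, which cannot settle whether they are. Tumour 3, alone in its block, adds nothing to the fit with the block. With 1 array left out in turn, risen members numbered 0 to 4 and fallen members 2 to 8. Clade a had 0 to 2 risen and 1 to 5 fallen, clade b 0 to 2 risen, and clades c to i 0 to 2 fallen. Target proteases ranged from 0 to 8 risen and 0 to 9 fallen, and other inhibitors from 0 to 6 and 0 to 4. The lowest counts came from leaving out a control, where the remaining control is taken to vary as tumours do and 129 or 108 of all genes were called, against 2106. No called gene changed direction. The sign changed under some alternative in 16 of the members, none of them called, among them Serpina3n (to 0.06) and Serpinc1 (to 0.14) with quantile normalisation repeated. Signal near background limits the clade b members under the lower quartile, for which no change can be read.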

Other observations

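Several liver serpins are known as acute-phase proteins, and the other acute-phase proteins of the liver were examined beside them. Of 18 measured, 2 rose (11.1%, against 5.6% of all genes), 3 fell (16.7%, against 4.96%) and 13 did not pass. The median log2 change was 0.02. Lcn2 rose by 5.47 and Apcs, serum amyloid P, by 1.81, with 8.30 and 7.52 in the controls against 9.73, 9.46 and 9.96 in the tumours. Crp fell by 3.05, Saa4 by 5.01 and Saa3 by 1.81, and Fgb, a fibrinogen chain, stood at −0.06 without passing. Of these calls, that of Lcn2 was held without either control, those of Apcs, Crp, Saa3 and Saa4 were lost there, and those of Saa3 and Saa4 also without tumour 2.

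Markers of the other cell types were read beside the 10.6% of all genes that were called. At that share, few calls or none in lists of 3 to 10 genes do not show that a cell type was unchanged. Of 8 endothelial markers none passed, with mean log2 levels of 7.38 and 7.51 in the controls and 8.48, 7.35 and 6.19 in the tumours. Of 10 stellate cell and fibroblast markers, Acta2 alone passed, as risen (10%, against 5.6% of all genes). That list averaged 6.78 and 6.66 in the controls, against 7.999, 7.22 and 6.09 in the tumours. Tumour 1 was highest and tumour 3 lowest in both lists. None of 5 cholangiocyte, 4 platelet, 5 mast cell, 3 B cell, 5 mesothelial, 7 squamous and 5 pancreatic acinar markers passed.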
